A study of Mus musculus with 6 samples.

Results

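The enzymes that carry acetyl units through mevalonate to squalene epoxide were followed in mouse testis by 6 of their genes. These members were Hmgcs1, Pmvk, Mvd, Idi1, Fdft1 and Sqle. The array's annotation also names Acat1 and Idi2 of this stretch, which were not detected on any array. The 6 members were taken by gene symbol, with earlier results of these data known. They stand on 7 of the 33012 probes of the array, since Idi1 has 2 probes. All 7 were detected on every array, with a signal-to-noise between 7.55 and 108, where 3 counts as detected. Mvd was the dimmest, with a signal-to-noise of 7.55 to 24.78, while the other probes stood at 21.6 or more. In each comparison 0 of the 6 genes passed. Mvd read lowest on both arrays of the ezetimibe-fed mice and differed most in the comparisons with them, while Pmvk differed most between knockout-labelled and wild-type mice.

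Whole testes came from 6 adult male mice on a C57BL/6J background, aged 10 to 12 weeks, with 1 array per mouse. Of these mice 2 were wild-type and fed chow, 2 were labelled Abcg8 knockout and fed the same chow, and 2 were labelled Abcg8 knockout and their chow held 0.005% ezetimibe, a blocker of sterol uptake in the gut. Abcg8 encodes a subunit of a membrane pump by which liver and gut cells shed cholesterol and sterols of plant origin. The sources used here do not say which stretch of the gene was altered. In wild-type mice the Abcg8 probe gave raw signals of 1715 and 569, in those labelled knockout without the drug 20013 and 22134, and in those with it 25697 and 24767. That is higher where the labels say knockout, so genotypes below are those of the labels and the arrays are called knockout-labelled. Median raw signals were 258 on wild-type replicate 2 and 515 to 678 on the other 5 arrays. In whole testis, fewer cells of a type and less RNA per cell cannot be told apart.

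Cells build cholesterol from acetyl-CoA. HMG-CoA synthase and HMG-CoA reductase lead to mevalonate, a chain of kinases and a decarboxylase turns it into isoprenoid units, and squalene synthase commits these units to sterols. When sterols in the endoplasmic reticulum run low, SCAP escorts the SREBP transcription factors to be cut and freed, and they switch on most genes of the chain, while INSIG proteins hold SCAP back when sterols are plentiful. In the testis, Leydig cells turn cholesterol into testosterone, and germ cells make sterol intermediates of their own.

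Promoters are shown for Hmgcs1 and Mvd, since Hmgcs1 varied most between mice of a group and Mvd differed most in the comparisons with ezetimibe-fed mice. The windows reach from 250 bases before to 50 after the gene start, as given by RefSeq for build GRCm38.p6. The set of windows used here held entries for 4 of the 6 members. Hmgcs1 is at chr13:119690101-119690400 on the plus strand and Mvd at chr8:122443373-122443672 on the minus strand, each written 5′ to 3′ along its gene. Capitals mark matches on either strand to the sterol regulatory element core TCACNCCAC, to the NF-Y box CCAAT and to the Sp1 box GGGCGG.
Hmgcs1: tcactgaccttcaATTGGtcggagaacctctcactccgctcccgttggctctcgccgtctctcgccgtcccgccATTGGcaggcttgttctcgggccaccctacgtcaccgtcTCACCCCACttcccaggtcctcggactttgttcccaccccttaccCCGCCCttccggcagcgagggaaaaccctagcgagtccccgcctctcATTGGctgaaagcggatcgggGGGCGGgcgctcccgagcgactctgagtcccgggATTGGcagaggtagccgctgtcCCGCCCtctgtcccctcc
Mvd: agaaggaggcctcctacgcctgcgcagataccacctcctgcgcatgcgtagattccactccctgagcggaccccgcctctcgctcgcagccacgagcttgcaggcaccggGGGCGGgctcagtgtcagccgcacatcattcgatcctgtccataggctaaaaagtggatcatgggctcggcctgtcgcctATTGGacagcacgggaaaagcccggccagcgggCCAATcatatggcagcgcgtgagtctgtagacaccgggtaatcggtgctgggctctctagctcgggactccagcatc
The Hmgcs1 window held TCACCCCAC, a form of the core at position -137 from the gene start, with 4 NF-Y boxes and 3 Sp1 boxes. The Mvd window held 2 NF-Y boxes and 1 Sp1 box. The Idi1 window held NF-Y boxes as well, as did 1 of the 2 windows of Pmvk, and none of the 4 genes had the E-box CACGTG. Over all 32851 windows of the table, 1.24% held the core, 37.4% an NF-Y box, 35.7% an Sp1 box and 7.15% the E-box. A match describes letters only, and its use in these testes was not measured.

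Knockout-labelled testes were first compared with wild-type testes, both from mice on chow without ezetimibe. Of the 6 members, 0 passed in limma's test with p-values adjusted over all 16015 tested probes, against 0.0125% of all probes. At an unadjusted p under 0.05 the count was 0 of 7 probes, against 8.99% of all. Hmgcs1, the synthase at the head of the chain, read 15.37 and 14.84 in normalised log2 signal on the wild-type arrays and 15.06 and 15.10 on the knockout-labelled arrays. The knockout-labelled values lay between those of the wild-type mice. The difference was -0.03 log2 units (SE 0.26), with a 95% interval from 0.611-fold to 1.58-fold.

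Pmvk, the kinase that adds the second phosphate to mevalonate, showed the lowest p of the members here. It read 14.55 and 14.56 on the wild-type arrays and 14.75 and 14.85 on the knockout-labelled arrays. Both knockout-labelled arrays were above both wild-type arrays. The difference was 0.25 log2 units (SE 0.11), or 1.19-fold with a 95% interval from 0.971 to 1.45 (limma adjusted p = 0.558, higher in 2 of 2 arrays).

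Mvd, the decarboxylase that makes isopentenyl diphosphate, read 11.11 and 11.09 on the wild-type arrays and 11.02 and 10.97 on the knockout-labelled arrays. The groups did not overlap, and the difference was -0.10 log2 units (SE 0.09, limma adjusted p = 0.669). Idi1, the isomerase that readies isoprenoid units for joining, gave 13.88 and 13.82 against 13.76 and 13.81 on its brighter probe (565056). These groups did not overlap either, with the nearest arrays at 13.82 and 13.81. Its difference was -0.06 log2 units (SE 0.09), while the dimmer Idi1 probe (826570) differed by 0.03 (SE 0.14) with overlapping groups, so the probes of this gene disagreed in sign. Scaled by array medians, where the median of all probes stood at 0.109, Mvd and the brighter Idi1 probe differed by 0.014 and 0.045, below that median by 0.095 and 0.064. Among the 7 probes, 1 lay above and 2 lay below wild-type without overlap, against 22.6% and 21.1% of all probes.

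Fdft1, squalene synthase, read 16.99 and 16.83 on the wild-type arrays and 16.89 and 17.03 on the knockout-labelled arrays. Its groups overlapped, and the 95% interval of the ratio ran from 0.831 to 1.30. Sqle, the epoxidase that follows, read 15.82 and 15.91 on the wild-type arrays and 15.47 and 15.89 on the knockout-labelled arrays. Knockout-labelled replicate 1 alone stood low, and the difference of -0.19 log2 units (SE 0.18, limma adjusted p = 0.701) became 0.02 without it. The members' median difference was -0.03 log2 units, beside 0.005 for all tested probes, and their median absolute difference was 0.06, beside 0.16.

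**Figure D1:**
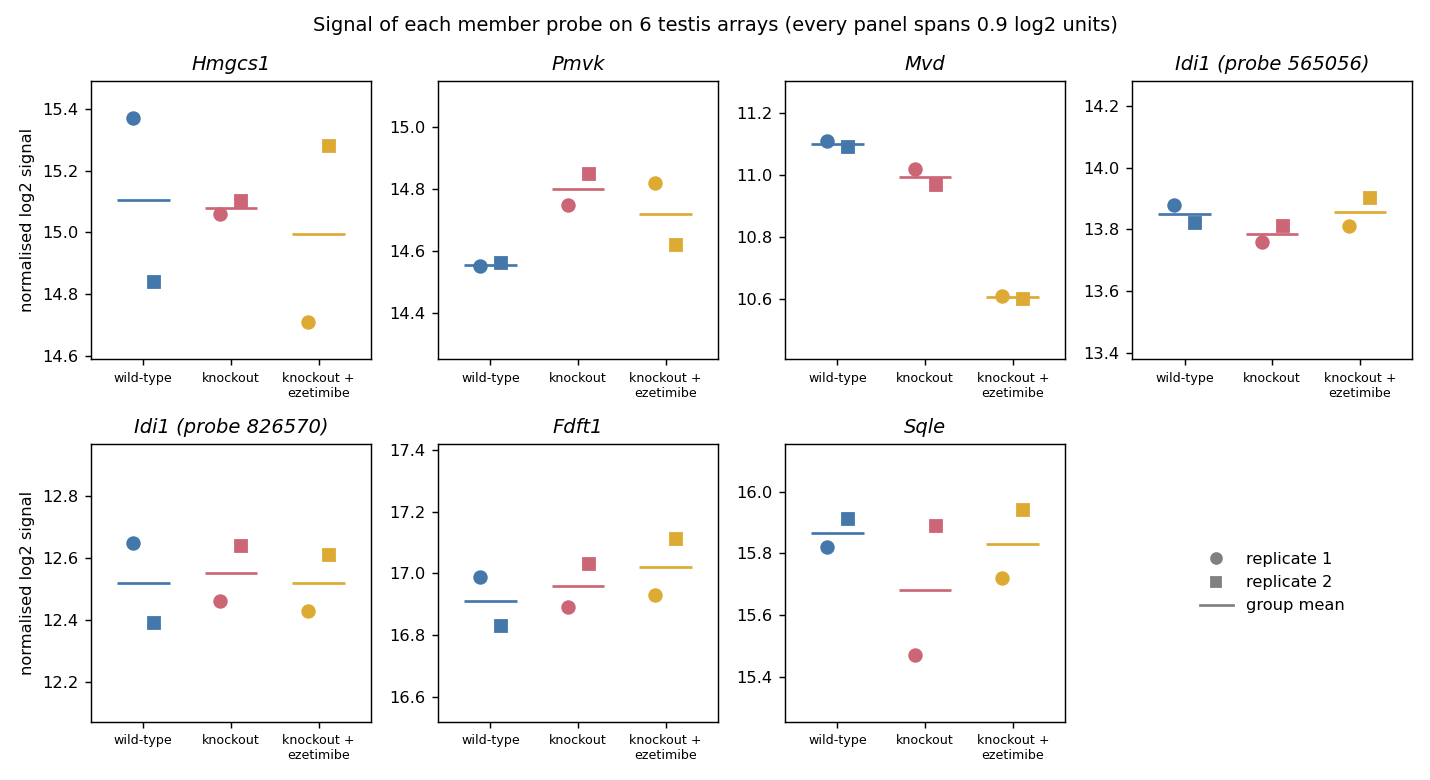
Normalised log2 signal (vertical axis) of the 7 probes of the 6 members on each of the 6 arrays, grouped by genotype and diet; circles are replicate 1, squares replicate 2 and lines group means. Mvd sits at 10.61 and 10.60 on the ezetimibe arrays and between 10.97 and 11.11 on the other 4, while Hmgcs1 spreads from 14.71 to 15.28 within the ezetimibe pair.

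Feeding ezetimibe to knockout-labelled mice was set against chow in the same genotype, to ask how these genes stood when sterol uptake was blocked. Mvd read 10.61 and 10.60 on the ezetimibe arrays, below 11.02 and 10.97 on the knockout-labelled arrays without it. Both ezetimibe mice were low, and the groups lay further apart than the mice within either of them. The difference was -0.39 log2 units (SE 0.09), or 1.31-fold lower with a 95% interval from -0.62 to -0.17 log2 units. It did not pass (limma unadjusted p = 0.00691, adjusted p = 0.624), and 1.11% of all probes had a p as low. In raw signal Mvd gave 1795 and 1786 with ezetimibe, against 2546 and 2064 without. Probes with an absolute signal-to-noise under 1 had a median raw signal of 116 to 235 by array, well below these values.

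The other members had unadjusted p-values of 0.425 or more in limma's test. The brighter Idi1 probe read 13.81 and 13.90 with ezetimibe, against 13.76 and 13.81, without overlap before rounding, and differed by 0.07 log2 units (SE 0.09). The dimmer Idi1 probe overlapped and differed by -0.03. Pmvk read 14.82 and 14.62, on either side of one knockout-labelled array, and differed by -0.09 log2 units (SE 0.11). Fdft1 read 16.93 and 17.11 and differed by 0.06 (SE 0.12). Sqle read 15.72 and 15.94 and differed by 0.15 (SE 0.18), or -0.06 without knockout-labelled replicate 1. These 3 genes overlapped between the groups.

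Hmgcs1 read 14.71 and 15.28 with ezetimibe, the lowest and the second highest of its 6 values. Its difference of -0.08 log2 units (SE 0.26) was smaller than the 0.57 between those mice. Of the members 0 of 6 passed, against 0% of all probes, and 1 of 7 probes had an unadjusted p under 0.05, against 5.76%. Without overlap, 1 probe lay higher and 1 lower with ezetimibe, against 19.1% and 19.7% of all probes. The members' median difference was -0.03, beside 0.001 for all tested probes.

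The ezetimibe-fed mice were also set against the wild-type mice, a comparison that shares its arrays with the others. Mvd, at 10.61 and 10.60 against 11.11 and 11.09, differed by -0.50 log2 units (SE 0.09), or 1.41-fold lower, with a 95% interval of the ratio from 0.604 to 0.829. This too did not pass (limma unadjusted p = 0.00256, adjusted p = 0.381), and 0.668% of all probes had a p as low. Mvd was lower on 2 of 2 ezetimibe arrays, and with any 1 of the 6 arrays left out it differed by -0.513 to -0.486. After quantile normalisation the mice of a group gave nearly the same Mvd value. Its within-group SD was 0.024 log2 units, and 0.9% of tested probes had a smaller one. In the authors' processed values the wild-type mice read 4.36 and 3.77, further apart. Under median scaling the SE of the difference from wild-type was 0.129, against 0.088 as reported. The median SD of all tested probes was 0.143.

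Pmvk stayed without overlap above wild-type in the ezetimibe mice, at 14.82 and 14.62 against 14.55 and 14.56. The difference was 0.16 log2 units (SE 0.11, limma adjusted p = 0.803), and 0.06 without ezetimibe replicate 1. The brighter and dimmer Idi1 probes differed by 0.01 and 0.00 log2 units, with 95% intervals of the ratio from 0.849 to 1.19 and from 0.774 to 1.30. Fdft1 differed by 0.11 (SE 0.12), Sqle by -0.03 (SE 0.18) and Hmgcs1 by -0.11 (SE 0.26), all with overlapping groups. Of the members 0 of 6 passed, against 0.0125% of all probes, and 1 of 7 probes had an unadjusted p under 0.05, against 7.24%. Without overlap, 1 probe lay higher and 1 lower, against 18.6% and 18.2% of all.

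**Figure D2:**
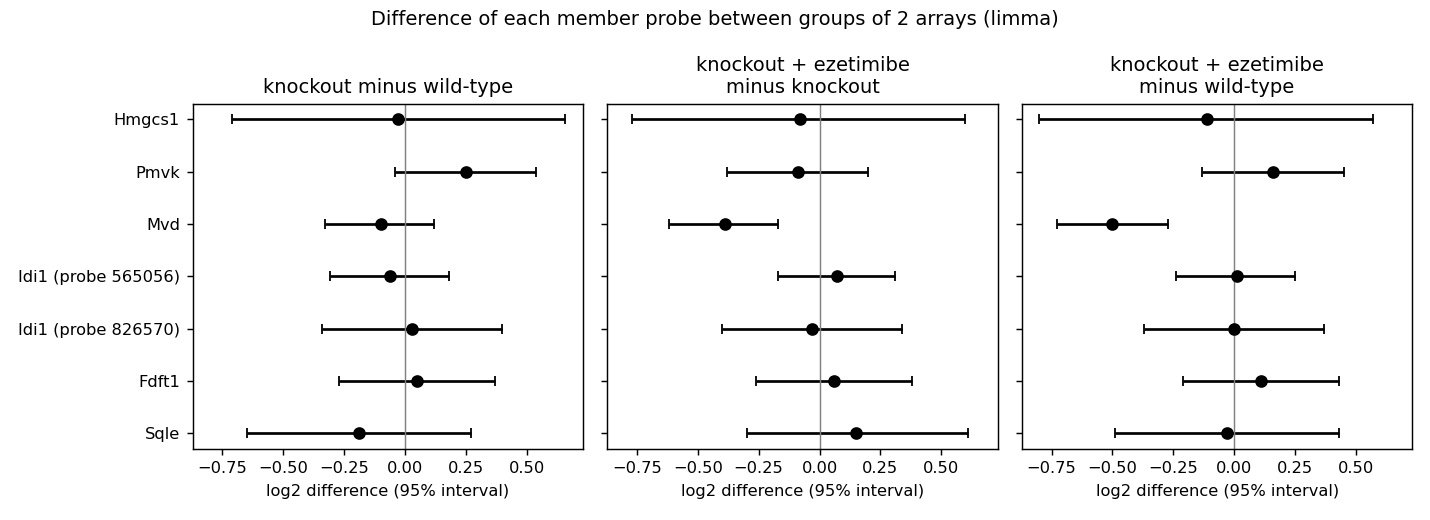
Log2 difference (horizontal axis) of each member probe in the 3 comparisons, as points with 95% intervals from limma; the vertical line marks no difference. Only the Mvd intervals of the comparisons with the ezetimibe arrays, -0.62 to -0.17 and -0.73 to -0.27, lie wholly on one side of 0, before adjustment for the number of probes.

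Marker lists of other cells are set beside the Mvd values, with 0 of their genes passing in any comparison. Of 10 Leydig cell markers 7 were measured, with a summed normalised signal of 109000 to 114000 on the wild-type arrays, 117000 on both knockout-labelled arrays and 98600 to 102000 with ezetimibe. Of 10 macrophage markers 7 were measured, at 66300 to 72200, 73000 to 74300 and 53900 to 60600 in the same order, and Adgre1, a defining macrophage gene, was not detected on any array. The 2 measured blood markers summed to 66100 to 68500, 163000 to 327000 and 36800 to 57800. With ezetimibe against chow in knockout-labelled mice, 6 of 7 Leydig, 7 of 7 macrophage and 7 of 7 Sertoli cell markers lay below 0. Their medians were -0.28, -0.39 and -0.20 log2 units. So did 5 of 6 markers of peritubular and endothelial cells and 4 of 6 of spermatogonia, with medians of -0.14 and -0.15. The spermatocyte, round spermatid and elongating spermatid medians were -0.11, -0.04 and -0.02. Of all tested probes 50.2% lay above 0 in this comparison. With ezetimibe against wild-type mice the Leydig and macrophage medians were -0.18 and -0.19, and the Sertoli median was 0.04. Among germ cells, the mean log2 signal of the spermatogonia list ran from -0.42 to 0.36 around its average over the arrays, that of the elongating spermatid list from -0.08 to 0.19, and that of the spermatocyte list from -0.06 to 0.06. In knockout-labelled against wild-type mice, where Pmvk differed by 0.25, 7 of 7 Sertoli and 6 of 6 spermatogonia markers lay above 0. Each list had a median of 0.24, and 50.9% of all tested probes lay above 0. The Leydig and macrophage medians were -0.03 and -0.02. Those of spermatocytes, round spermatids and elongating spermatids were -0.00, 0.10 and -0.16. The median of peritubular and endothelial markers was 0.10, and that of the 2 blood markers 1.06. The part of these cells in the Mvd and Pmvk differences was not tested.

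The genes around the chain were counted from lists. Of 7 other genes that act before squalene epoxide, 2 were named on the array, the thiolase gene Acat1 and the isomerase gene Idi2, and neither was detected on any array, with a signal-to-noise of at most 1.62 and 1.2. HMG-CoA reductase, mevalonate kinase and farnesyl diphosphate synthase were not analysed here. Of 11 genes for the steps after squalene epoxide 7 were tested and 0 passed in any comparison. In knockout-labelled against wild-type testes 2 lay above 0 and 5 below, with a median of -0.35 log2 units beside 0.005 for all tested probes. The lowest p there were those of the sterol reductase Tm7sf2, at -0.55 (SE 0.14, limma adjusted p = 0.471), and the sterol oxidase Msmo1, at -0.45 (SE 0.20). With ezetimibe against chow in knockout-labelled mice 5 lay above 0 and 2 below, with Tm7sf2 at 0.35 (SE 0.14) and the sterol isomerase Ebp at -0.17. Against wild-type mice 1 lay above 0 and 6 below, with Tm7sf2 at -0.20 and Hsd17b7, a ketosteroid reductase, at -0.45.

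Of 13 genes that sense sterols or set their uptake 7 were tested and 0 passed. In knockout-labelled against wild-type testes 1 lay above 0 and 6 below, with the SREBP site-2 protease Mbtps2 at -0.41 (SE 0.21) and Insig1 at -0.46 (SE 0.25). With ezetimibe against chow 3 lay above and 4 below, with Srebf1, which encodes SREBP-1, at -0.17 and the sterol receptor Nr1h3 at 0.12. Against wild-type mice 2 lay above and 5 below, with Srebf1 at -0.26 (SE 0.11, limma adjusted p = 0.714) and Mbtps2 at -0.42.

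Of 13 genes on other branches of isoprenoid use 9 were tested and 0 passed. In knockout-labelled against wild-type testes 3 lay above 0 and 6 below. Ggps1, which makes the geranylgeranyl chain, was at -0.21 (SE 0.09, limma adjusted p = 0.55), and Fnta, a farnesyltransferase subunit, at -0.17. With ezetimibe against chow 7 lay above and 2 below, with Fntb, the other farnesyltransferase subunit, at -0.25 and Rabggta, of the Rab prenyltransferase, at 0.13. Against wild-type mice 3 lay above and 6 below, with Ggps1 at -0.15 and Fntb at -0.22.

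**Figure D3:**
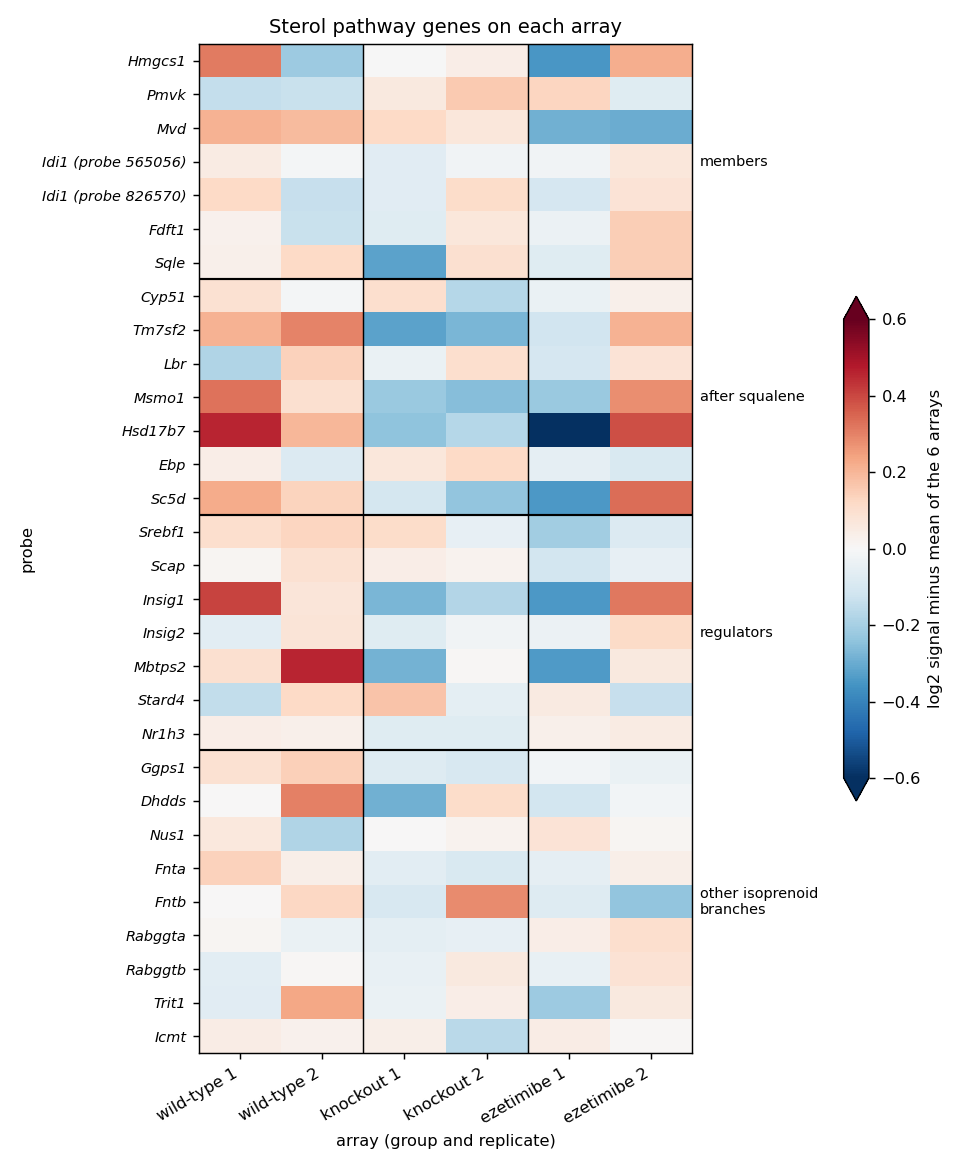
Log2 signal of each probe minus its mean over the 6 arrays, as colour (red above, blue below), for the members and 23 other pathway genes (rows) on each array (columns). Mvd is blue on both ezetimibe arrays, and Hmgcs1 and Insig1 are blue on ezetimibe replicate 1 and red on replicate 2.

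The members did not vary alike between mice of a group. Hmgcs1 had a pooled within-group SD of 0.319 log2 units, above that of 79.6% of tested probes, and Sqle one of 0.198. Fdft1 had 0.113, Pmvk 0.092 and the Idi1 probes 0.049 and 0.147. Hmgcs1 was higher on ezetimibe replicate 2 than on replicate 1 by 0.57, and 4.4% of tested probes had a larger upward gap. On the wild-type arrays replicate 2 was lower than replicate 1 by 0.53 on the same probe, while the knockout-labelled mice were 0.04 apart.

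Genes most like each member over the 6 arrays were found by Pearson's r against 8075 named genes. Mvd was nearest to Ifitm2 (r = 0.996), Sfrp2 (r = 0.986) and Tmem161a (r = 0.984), and 63 genes had r over 0.9 with it. Hmgcs1 was nearest to Tmem30a (r = 0.987), Onecut1 (r = 0.962) and Csrnp3 (r = 0.961). Pmvk was nearest to Znhit3 (r = 0.994), Hipk3 and Nectin4 (both r = 0.982). The brighter Idi1 probe was nearest to Clmp (r = 0.992), Polr3e (r = 0.974) and Dnal4 (r = 0.970). The dimmer one was nearest to Ell (r = 0.976), Wrnip1 (r = 0.973) and Leprot (r = 0.960). The Idi1 probes shared none of these genes, and their r with each other was 0.58. Fdft1 was nearest to Ccz1 (r = 0.982), Ankib1 (r = 0.980) and Thtpa (r = 0.977), and Sqle to Nde1 (r = 0.998), Dr1 (r = 0.988) and Ngly1 (r = 0.976). With so many genes set against 6 arrays, such values are a description, and the arrays share the groups and the normalisation.

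**Figure D4:**
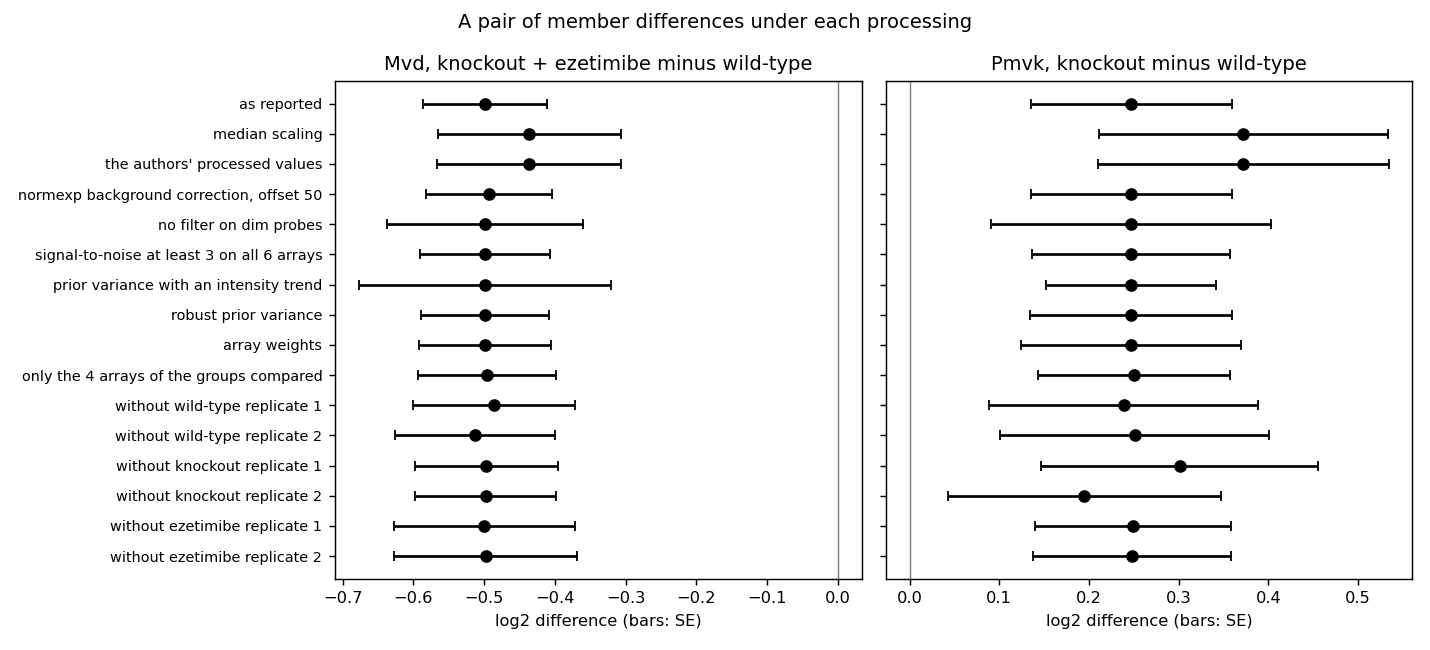
Log2 difference (horizontal axis, bars are SE) of Mvd between ezetimibe-fed knockout-labelled and wild-type mice and of Pmvk between knockout-labelled and wild-type mice, as reported and under 15 other ways of processing (rows). Mvd lies between -0.51 and -0.44 and Pmvk between 0.20 and 0.37 throughout, and neither passed under any of them.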

How the data were processed

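Digoxigenin-labelled RNA of 6 testes was read on arrays of 1 colour, per the labels' protocols. Per the file headers, the authors deposited raw intensity and, as a score, signal-to-noise for each probe; no source used here gives the scanner settings. Their deposited processed intensity is the raw one over a constant near each array's median, and was tried as another input. Per-sample columns left out numbered 0.

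Raw signals were log2-transformed and quantile-normalised with limma 3.58.1 in R 4.3.3. Probes with a signal-to-noise of at least 3 on both arrays of a group were kept, 16015 of 33012. One linear model with a mean per group and a shared spread was fitted (lmFit, eBayes). Adjustment followed Benjamini-Hochberg over all kept probes, at a threshold of 0.05. The procedure was tested on simulated data with changes larger than any member difference here, so that test cannot show how differences of their size are called. With 2 arrays a group, the smallest p of an exact two-sided permutation test is 0.333. The number of arrays limits the precision.

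Gene names came from the platform annotation, checked against RefSeq identifiers, which changed 0 symbols. Where a listed gene had several probes the brightest stood for it, and all probes of members are given. Motifs were searched on both strands. The members and lists were chosen with earlier results of these data known. Named are all members, from each pathway list the 2 genes with the lowest p in each comparison, and the 3 genes most like each member probe; others are said to be chosen after their values were seen. Labels give no batch, slide or scan date. Alternatives were median scaling, the processed values, normexp correction with an offset of 50, other filters, other variance priors, array weights, fits to 4 arrays and each array left out.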

Additional observations from a re-analysis of the deposited data

How the results depend on the processing

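The count of members that passed was 0 of 6 in each of the 3 comparisons under all 15 alternatives. Of 315 member differences recomputed, 286 kept their direction and 29 turned, none of them passing. Mvd kept its direction throughout against both other groups when ezetimibe was involved, and all alternatives drew on the same 6 arrays. Where no array was left out, its adjusted limma p was 0.443 to 0.862 against knockout-labelled mice and 0.333 to 0.803 against wild-type mice. Its unadjusted limma p reached 0.049 against knockout-labelled mice and 0.0184 against wild-type mice. A prior variance with an intensity trend raised its SE from 0.088 to 0.178 in both comparisons. Median scaling moved the median of all probes to 0.109 log2 units in knockout-labelled minus wild-type testes, -0.050 in ezetimibe minus knockout-labelled and 0.058 in ezetimibe minus wild-type. Under median scaling and the authors' processed values, knockout-labelled minus wild-type became 0.077 and 0.078 for Hmgcs1, 0.045 and 0.045 for the brighter Idi1 probe and 0.014 and 0.016 for Mvd, and ezetimibe minus wild-type became 0.019 and 0.019 for Sqle. Less the shift, the median-scaled values were -0.032, -0.064, -0.095 and -0.039. With each array left out in turn, knockout-labelled minus wild-type ran from -0.291 to 0.237 for Hmgcs1, -0.098 to 0.165 for the dimmer Idi1 probe, -0.025 to 0.135 for Fdft1 and -0.399 to 0.022 for Sqle. Ezetimibe minus knockout-labelled ran from -0.370 to 0.201 for Hmgcs1, -0.187 to 0.012 for Pmvk, -0.118 to 0.056 for the dimmer Idi1 probe, -0.030 to 0.149 for Fdft1 and -0.055 to 0.364 for Sqle. Ezetimibe minus wild-type ran from -0.398 to 0.174 for Hmgcs1, -0.038 to 0.051 and -0.130 to 0.134 for the brighter and dimmer Idi1 probes and -0.146 to 0.079 for Sqle. A lone array left in a group was assumed to vary like the other groups. The cause of the turns was not tested. No paired analysis was possible because the animals of different groups share no number in the labels.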

Other observations

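The mice fed ezetimibe differed from each other in several genes of sterol synthesis, which were chosen after their values were seen. On replicate 2, Hsd17b7 read higher than on replicate 1 by 1.02 log2 units, Sc5d, a sterol desaturase, by 0.68, Insig1 by 0.66, Hmgcs1 by 0.57 and Msmo1 by 0.50, while between 1.4% and 5.4% of all tested probes had a larger upward gap. Of the 7 tested genes after squalene epoxide 6 were higher on replicate 2, as were 5 of the 7 member probes, beside 50.9% of all tested probes. In the knockout-labelled pair without ezetimibe 6 of the 7 member probes and 4 of the 7 genes after squalene epoxide were higher on replicate 2, beside 51.8% of all tested probes, and in the wild-type pair 2 of 7 of each, beside 49.5%. Of the 7 tested genes that sense sterols or set their uptake, 6 were higher on replicate 2 of the ezetimibe pair. In the wild-type pair 5 of these 7 were higher on replicate 2, and in the knockout-labelled pair 4. Between the ezetimibe mice Mvd read 10.61 and 10.60, and Pmvk differed by -0.20. Cyp51, of the steps after squalene epoxide, differed by 0.08, Ebp by -0.03 and Stard4, of the sterol-sensing list, by -0.19. These were also chosen after their values were seen. In the wild-type pair, replicate 2 was lower than replicate 1 for Hmgcs1 (-0.53), Insig1 (-0.33), Hsd17b7 (-0.26), Msmo1 (-0.23) and Sc5d (-0.09). It was higher for Mbtps2 (0.36), Stard4 (0.27) and Insig2 (0.14) of the sterol-sensing list. Lbr, of the steps after squalene epoxide, was higher as well (0.32). These genes too were chosen after their values were seen. Wild-type replicate 2 was the dimmest array. What set the mice of a pair apart was not tested.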
